A study of Mus musculus with 18 samples.

Results

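Macrophages whose uptake of choline was blocked before polarization with IL-4 were compared with vehicle-treated macrophages polarized in the same way. The comparison rests on 6 of the 18 libraries of the series, chosen by their treatment and polarization labels: 3 from cells given 250 µM hemicholinium-3 (HC3), which blocks choline uptake, and 3 from cells given vehicle (Veh, 0.1% DMSO). Bone marrow-derived macrophages (BMDM) of female C57BL/6J mice aged 12 weeks, grown in medium with supernatant of L-929 fibroblast cultures and harvested on day 7, received HC3 or vehicle for 24 h and then 20 ng/mL IL-4 for a further 24 h (M[IL-4]). The labels do not say whether HC3 was washed out before IL-4 was added to these cultures. The labels speak of 3 individual mice, and replicate numbers 1 to 3 recur in every group. For 2 further comparisons, 3 libraries each were taken from naïve macrophages given vehicle or HC3 and no IL-4 (M[0]), and from M[IL-4] given 5 µM RSM-932a (RSM), an inhibitor of choline kinase. Inhibitor and vehicle groups therefore share mouse strain, sex, culture and times. The labels give DMSO for the vehicle groups only, so they do not show whether the inhibitor groups were matched in solvent. HC3 was used at a single dose and time, so nothing here separates an early from a late response, and choline itself was not measured in these libraries.

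Choline enters cells through plasma membrane transporters such as SLC44A1, is phosphorylated by choline kinase, activated to CDP-choline by the CCT enzymes and joined to diacylglycerol, which gives phosphatidylcholine, the main phospholipid of cell and mitochondrial membranes. IL-4 binds a receptor that contains the IL-4Rα chain and activates the transcription factor STAT6, and macrophages then turn on genes of alternative activation, among them *Arg1* (arginase), *Mrc1* (mannose receptor), *Chil3* (a chitinase-like protein) and *Retnla* (the secreted protein RELMα). The mitochondrial chromosome encodes the mitochondrial rRNAs and tRNAs and a small set of respiratory chain subunits, while all other mitochondrial proteins come from nuclear genes.

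Total counts of read pairs were 18479307 to 18911300 in the Veh M[IL-4] libraries and 17624254 to 18621637 in the HC3 M[IL-4] libraries. Expression is given as CPM (counts of a gene relative to library size, with libraries scaled by TMM), always in the order of replicates 1, 2 and 3, and 3 counts in a library of M[IL-4] correspond to 0.159 to 0.170 CPM. Of 55385 genes listed, 14979 reached 10 counts in 2 or more of the 18 libraries and were tested. A gene was called, and is said to have risen or fallen, where the Benjamini-Hochberg FDR of edgeR's quasi-likelihood test was under 0.05 and the log2 fold change of HC3 over Veh was at least 1 or at most -1. Replicate 2 stood apart from replicates 1 and 3 in both groups, with a mean chi-square per gene of 11.6 to 20.3 against 6.30 and 7.15 between replicates 1 and 3. Without replicate 2 in both groups, 1363 genes were called in place of 1536. The 6 libraries held macrophage transcripts, with *Csf1r* (the receptor for the growth factor M-CSF) at 3687, 3462 and 3374 CPM in Veh and 1886, 2058 and 1833 in HC3. Of the 11 marker genes of neutrophils, *S100a9*, *Ly6g*, *Elane* and *Retnlg* had no count in any of the 6 libraries, and neither had *Cd3d*, *Cd3e* and *Cd3g* of T cells or *Fcer1a* of mast cells. Other members of those lists had counts, among them *Csf3r* (4668 over the Veh and 2959 over the HC3 libraries), *S100a8* (16 and 23), *Lck* (10 and 52) and *Kit* (100 and 244).

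Blocking choline uptake changed the expression of 1536 genes in M[IL-4] (10.3% of those tested), of which 707 rose (4.72%) and 829 fell (5.53%). With the FDR alone, 2824 genes were higher (18.9%) and 2986 lower (19.9%). All HC3 libraries lay above all Veh libraries for 3325 genes (22.2%) and below them for 3551 (23.7%), and among the 1536 called genes 1482 showed such a gap between the groups. The calls rest on the same libraries and favour such a gap, so it is no separate support for them. Most changes were moderate. A log2 fold change of 2 or more was reached by 192 of the genes that rose and 185 of those that fell, and of 5 or more by 25 and 15. The median log2 fold change of all genes tested was 0.01. The counts given for lists of genes stand beside the shares of all genes that rose (4.72%) and fell (5.53%). Transcript levels in these pooled cells do not tell fewer cells of a kind from less RNA per cell, which holds for every gene below.

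**Figure D1:**
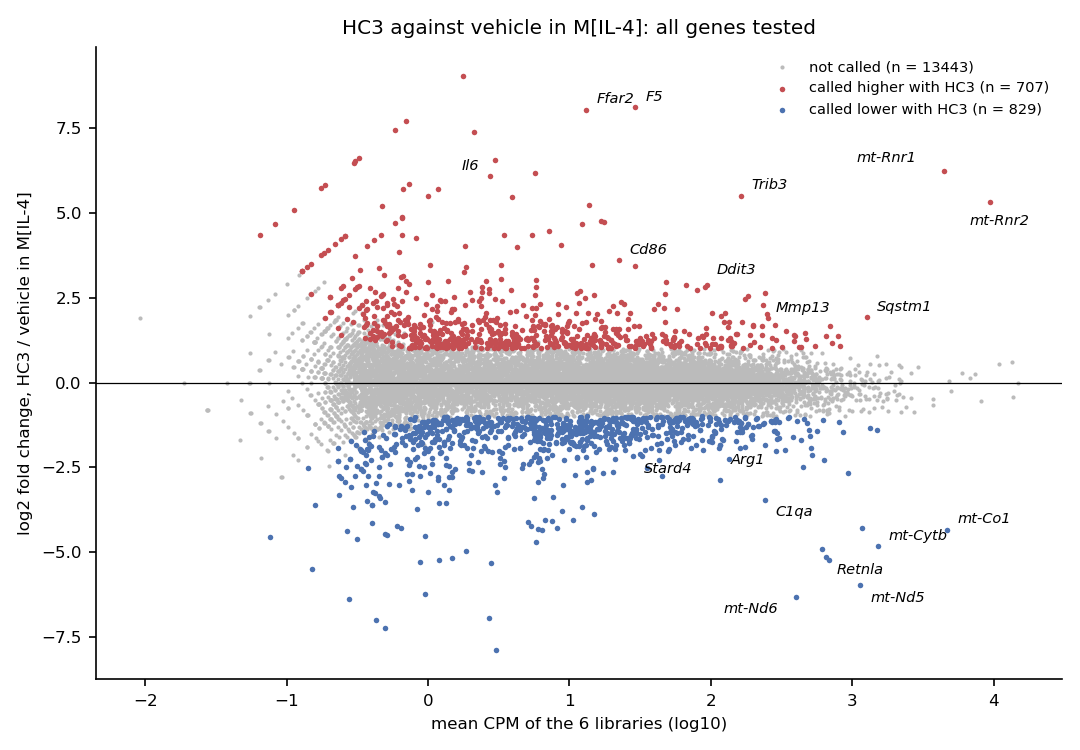
HC3 against vehicle in M[IL-4] for the 14979 genes tested. Each point is a gene, with the mean CPM of the 6 libraries on the x axis (log10) and the log2 fold change of HC3 over vehicle on the y axis, in red where called higher (707), in blue where called lower (829) and in grey where not called. The 2 mitochondrial rRNA genes stand alone at high level and high fold change, and mRNAs of the same chromosome lie at the opposite edge.

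The mRNAs of the mitochondrial chromosome fell steeply, and its rRNAs moved the other way. All 12 mRNA genes of that chromosome that could be tested fell (13.8- to 79.1-fold, median log2 fold change -4.75), while both rRNA genes rose. Transcripts of the mitochondrial chromosome took 1.78% to 2.20% of the counts in the Veh libraries and 2.50% to 3.31% in the HC3 libraries, so their sum did not fall. The makeup of that sum turned over: rRNA was 2.53%, 2.89% and 3.10% of the mitochondrial counts in Veh and 97.0%, 97.6% and 96.7% in HC3. In the same libraries the mRNA share went from between 96.6% and 97.2% to between 2.35% and 3.31%.

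*mt-Rnr1*, the 12S rRNA of the small mitochondrial ribosomal subunit, had 94.7, 147 and 109 CPM in Veh and 7550.0, 11139 and 7719 in HC3 (log2 fold change 6.24, SE 0.23, FDR = 3.47e-13). *mt-Rnr2*, the 16S rRNA of the large subunit, had 363, 541 and 486 CPM and 16769, 22127 and 16364 (log2 fold change 5.31, SE 0.18, FDR = 1.2e-13). Every HC3 library was far above every Veh library for both. The mRNA that fell furthest was *mt-Nd6*, a complex I subunit and the only one of these mRNAs encoded on the opposite strand, with 701, 919 and 757 CPM in Veh and 7.70, 11.0 and 11.3 in HC3 (log2 fold change -6.31, SE 0.22, FDR = 1.82e-13). The other complex I mRNAs fell by log2 fold changes of -5.96 (*mt-Nd5*), -5.23 (*mt-Nd2*), -5.17 (*mt-Nd4l*, with only 155 counts over the Veh and 4 over the HC3 libraries), -4.91 (*mt-Nd4*), -4.68 (*mt-Nd3*) and -4.27 (*mt-Nd1*). *mt-Cytb*, the complex III subunit cytochrome b, went from 2566, 3456 and 2767 CPM to 97.6, 115 and 101 (log2 fold change -4.81, SE 0.15, FDR = 3.8e-14). *mt-Co1*, the catalytic subunit of complex IV, went from 8048, 10407 and 8276 CPM to 416, 465 and 447 (log2 fold change -4.33, SE 0.14, FDR = 8.09e-14), and *mt-Co2* (-4.04) and *mt-Co3* (-4.28) of the same complex fell with it. The least change was in *mt-Atp6* (-3.79), a subunit of ATP synthase. For each of the 12 mRNAs the groups were far apart, and the replicates of a group kept close to each other beside that distance.

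Mitochondrial tRNA genes, which punctuate the polycistronic transcripts of this chromosome and mark where these are cut, fell as well: all 13 that could be tested, by fitted log2 fold changes of -7.89 to -3.60. *mt-Te* and *mt-Tl1*, the tRNAs for glutamate and leucine, held 194 and 318 counts over the 3 Veh libraries against 6 and 1 over the 3 HC3 libraries (ratios of 32.5, 95% interval 14.7 to 89.8, and 320, 57.0 to 12680, exact conditional intervals that cover counting error only). *mt-Tl1* lies directly after *mt-Rnr2* on the chromosome, so that 2 neighbouring genes moved in opposite directions. Messenger RNA was captured with poly-T beads before sequencing, so in mitochondrial RNA a change in amount and a change in polyadenylation cannot be told apart. The tRNA genes tested span only 59 to 75 bases, and the libraries were made with fragmentation and size selection. Their counts therefore do not tell mature tRNA from uncut precursors or from reads that run into neighbouring genes. The falls in tRNA genes are thus not separate from those of the mRNAs. A nuclear pseudogene on chromosome 1, *Gm28439*, holds 876 bases that are near-identical to *mt-Nd4* and fell with it (285 counts in Veh, 2 in HC3). Such copies exist for 783 bases of *mt-Co3*, 681 of *mt-Co2*, 678 of *mt-Atp6*, 483 of *mt-Co1*, 345 of *mt-Nd3* and 294 of *mt-Nd4l*. Only pairs at a mapping quality of 40 were kept, so pairs that fit both copies may have been dropped or assigned to either copy. Mean Veh levels were 20.1 CPM for *mt-Co2*, 16.5 for *mt-Atp6*, 15.6 for *mt-Co3*, 11.1 for *mt-Nd3* and 2.89 for *mt-Nd4l*, against 8910 for *mt-Co1*. The levels and folds of those genes therefore rest on comparatively few read pairs, and the part of the copies in this was not tested. The exons of *mt-Nd6* overlap genes of the other strand over 2.70% of their length, and the strand setting of the counting is not given in the sources used here.

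**Figure D2:**
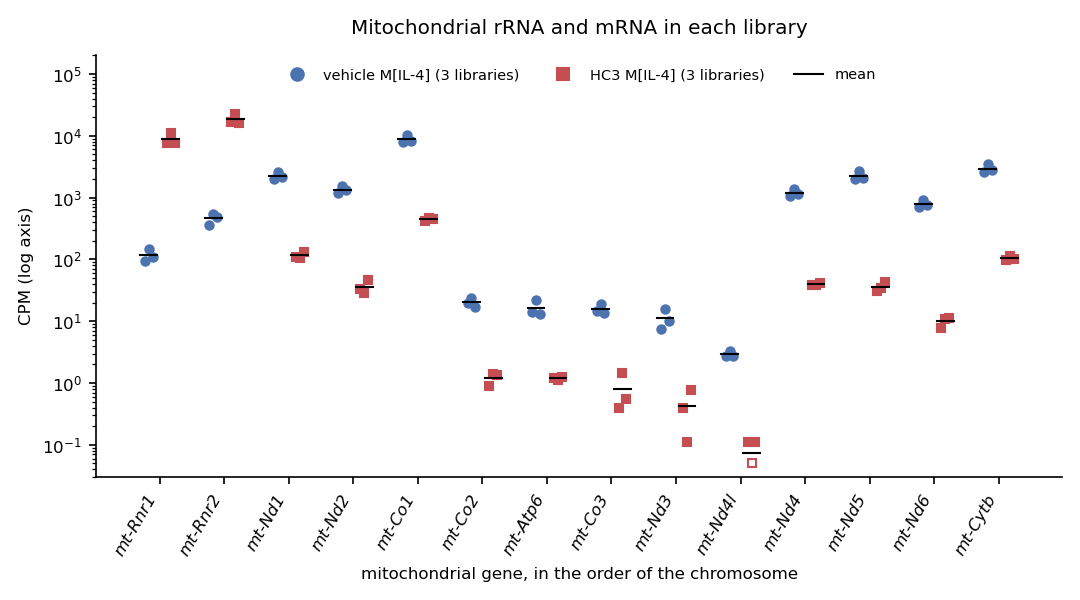
Levels of the 2 rRNA and 12 mRNA genes of the mitochondrial chromosome in each library, in the order of the chromosome, as CPM on a log axis (points are libraries, bars are group means, an open square is a library without a count drawn at the bottom of the axis). HC3 libraries (squares) lie above vehicle libraries (circles) for the rRNAs, with *mt-Rnr2* at 16769, 22127 and 16364 against 363, 541 and 486 CPM, and below them for every mRNA.

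Nuclear genes for the same respiratory complexes did not follow. Of 75 nuclear genes of complexes I to V, none rose and 1 fell, *Uqcrh* of complex III (-1.01, not called without HC3 replicate 3 (-0.94) or Veh replicate 3 (-0.94)), and the median was -0.20. With the FDR alone 2 were higher and 29 lower. *Atp5a1* and *Atp5b*, the core subunits of ATP synthase, had log2 fold changes of -0.42 (FDR = 7.8e-07) and -0.06 (FDR = 0.365). Of 38 nuclear genes for transcription, replication, processing and stability of mitochondrial RNA, none was called, and their median was 0.10. *Tfam*, which packages and transcribes mitochondrial DNA, had 27.7, 30.1 and 26.3 CPM in Veh and 27.3, 25.5 and 25.6 in HC3 (log2 fold change -0.10, SE 0.091, FDR = 0.412), *Lrpprc*, which stabilizes mitochondrial mRNA, had a log2 fold change of 0.39 (FDR = 3.39e-05), and *Tfb2m*, a mitochondrial transcription factor with a near-identical pseudogene, had -0.29 (FDR = 0.0271). In contrast, 4 of 19 genes for mitochondrial stress and protein quality control rose and none fell. *Hspa9*, the main chaperone of the matrix, went from 328, 349 and 332 CPM to 989, 1113 and 1072 (log2 fold change 1.65, SE 0.063, FDR = 4.71e-13), and *Lonp1* (1.32), *Dnaja3* (1.15) and *Atf5* (1.89), a matrix protease, a co-chaperone and a transcription factor of the mitochondrial stress response, rose with it. HC3 libraries were above Veh libraries for all 4. *Hspd1*, the chaperonin HSP60, had 0.61 (FDR = 2.81e-05), and of 17 genes for mitophagy and mitochondrial dynamics *Sqstm1* (1.93) and *Optn* (1.23), which encode adaptors of selective autophagy, rose.

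Several genes of the integrated stress response rose and none fell. This response starts with kinases that phosphorylate the translation factor eIF2α, which favours translation of the transcription factor ATF4, and ATF4 with partners such as CHOP then turns on genes for amino acid synthesis and uptake. Of 24 genes tested for the response, 9 rose and none fell (median 0.71), against 4.72% of all genes that rose. *Trib3*, a pseudokinase that restrains ATF4 and CHOP, had 7.54, 5.86 and 7.78 CPM in Veh and 342, 305 and 315 in HC3 (log2 fold change 5.5, SE 0.11, FDR = 1.06e-16), the highest fold change in the list. *Ddit3*, which encodes CHOP, had 20.2, 24.4 and 22.2 CPM and 166, 174 and 153 (log2 fold change 2.88, SE 0.090, FDR = 3.8e-14). The groups were far apart for both genes. *Ppp1r15a* (2.73) and *Chac1* (2.64), which encode the eIF2α phosphatase subunit GADD34 and an enzyme that degrades glutathione, and *Gdf15* (2.60), *Sesn2* (2.18), *Nupr1* (2.12), *Atf5* (1.89) and *Atf4* (1.21) rose too. *Atf3*, another transcription factor of the response, did not pass the fold threshold (-0.26, FDR = 0.00883). None of the 4 eIF2α kinase genes was called, though with the FDR alone 3 were lower and none higher (median -0.33).

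Genes that supply amino acids also rose more often than they fell, 12 up and 2 down of 40. They included *Asns* (1.31), asparagine synthetase, *Mthfd2* (1.22), a mitochondrial folate enzyme, *Slc7a11* (1.66), the cystine transporter, *Slc3a2* (1.38), its heavy chain, *Slc7a1* (1.44), a transporter of arginine and lysine, and *Gclm* (1.69), a subunit of the first enzyme of glutathione synthesis. *Aldh1l1* (-1.88), an enzyme of folate metabolism, was among those that fell. *Asns* had 85.7, 66.9 and 81.0 CPM in Veh and 189, 205 and 186 in HC3 (log2 fold change 1.31, SE 0.096, FDR = 3.4e-09), and *Slc7a11* had 11.0, 17.2 and 13 and 30.7, 59.0 and 41.0 (log2 fold change 1.66, SE 0.24, FDR = 1.51e-05). The groups did not overlap for either gene. *Psat1* of serine synthesis went the other way short of the fold threshold (-0.43, FDR = 0.0345), *Shmt2* had 0.50 (FDR = 0.000712) and *Cth*, which makes cysteine, had 0.57 (FDR = 0.185). Of 20 cytosolic aminoacyl-tRNA synthetases, which load amino acids onto tRNA, *Aars* (1.52), *Eprs* (1.39) and *Sars* (1.20) rose and 16 were higher with the FDR alone, whereas none of 17 mitochondrial synthetases was called. *Slc3a2*, *Gclm* and *Eprs* share stretches near-identical to other genes, so part of their counts is uncertain.

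The promoters of these genes were searched for the letters TGATGNAA on either strand, which lie in the composite C/EBP-ATF elements that ATF4 and CHOP are known to bind. The search covered 300 bases around the start of a gene (250 before to 50 after), from RefSeq on GRCm38.p6, and of the tested genes 10544 had such a promoter. The letters stood in 4.06% of all promoters, 2.32% of those of tested genes, 4.47% of those of genes that rose and 3.19% of those of genes that fell. They stood in 4 of 21 promoters of the integrated stress response (19.0%), 6 of 31 of amino acid supply (19.4%) and 5 of 26 of the synthetases (19.2%). Of the genes of these lists with the letters, *Atf3*, *Got1*, *Pck2*, *Gars*, *Iars*, *Tars* and *Yars* were not called. Other genes rose without the letters, among them *Ddit3*, *Atf4* and *Eprs*. The matches upstream of the starts of 4 genes that rose are shown with 20 bases on each side, or as far as the start of the gene for *Asns*, 5′ to 3′ on the strand of the gene, the matched letters in capitals.
Chac1 (chr2:119351029-119351076, forward strand): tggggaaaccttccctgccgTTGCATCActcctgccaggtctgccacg
Asns (chr6:7693210-7693252, reverse strand): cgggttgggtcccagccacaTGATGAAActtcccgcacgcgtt
Slc7a11 (chr3:50443633-50443699, reverse strand): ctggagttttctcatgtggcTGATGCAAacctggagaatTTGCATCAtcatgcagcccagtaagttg
Aars (chr8:111033710-111033757, forward strand): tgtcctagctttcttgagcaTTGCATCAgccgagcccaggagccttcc

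The element of *Slc7a11* occurs in both orientations, 66 and 47 bases before the start, that of *Asns* 23 bases, that of *Aars* 112 bases and that of *Chac1* 193 bases before it, counted from the starts in RefSeq. These are matches of letters only, and no factor was measured on them. In the unfolded protein response of the endoplasmic reticulum (ER), 3 of 32 genes rose and 2 fell, around a median of 0.05. *Ern1*, which encodes the ER stress sensor IRE1α, had 82.9, 84.0 and 72.7 CPM in Veh and 386, 399 and 381 in HC3 (log2 fold change 2.28, SE 0.065, FDR = 2.02e-14), with every HC3 library above every Veh library. *Ero1l* (1.95), an oxidase for disulfide bonds that CHOP is known to induce, and *Rhbdd1* (1.10), a protease of ER-associated degradation, rose, while *Sdf2l1* (-1.25) and *Derl3* (-2.75), a chaperone cofactor and a channel component for misfolded proteins, fell, *Derl3* from 42 to 6 counts over the group. The abundant chaperones were not called: *Hspa5*, which encodes BiP, had 1079, 1446 and 1191 CPM and 1093, 1322 and 1095 (-0.08, FDR = 0.598), *Calr*, calreticulin, had -0.83 (FDR = 2.17e-09), and *Xbp1*, a transcription factor downstream of IRE1α, had 0.21 (FDR = 0.074, and 0.00327 with a block for the replicate number).

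The genes of alternative activation split, with falls outnumbering rises. Of 56 tested, 19 fell, 4 rose and 33 were not called (median -0.53), against 5.53% and 4.72% of all genes. Secreted effectors made up 7 of the falls (of 13 tested, none rose), surface proteins 5, transcription regulators 4 and enzymes 3. The furthest fall was in *Retnla*, which lies on chromosome 16 of GRCm38 from 48842551 to 48844461. It had 797, 1519 and 1505 CPM in Veh and 32.2, 42.2 and 33.5 in HC3 (log2 fold change -5.15, SE 0.26, FDR = 6.13e-09). Every HC3 library was far below every Veh library, among which replicate 1 was low, and no M[0] library held a count. *Arg1* had 193, 150.3 and 201 CPM and 39.9, 51.8 and 59.1 (log2 fold change -1.85, SE 0.15, FDR = 1.69e-08), again without overlap. *Il10* (-2.61), an anti-inflammatory cytokine, *Ccl24* (-2.24) and *Ccl22* (-1.28), chemokines for eosinophils and T cells, *Cxcl16* (-1.48), a membrane chemokine, *Pdgfb* (-1.43), a growth factor, and *Ear2* (-2.82), a ribonuclease, also fell among the secreted effectors. *Ccl24* was rare, with 71 counts over the Veh libraries and 15 over the HC3 libraries (ratio 4.76, 95% interval 2.70 to 8.95), and it was not called without HC3 replicate 1 (-1.77) or HC3 replicate 3 (-1.86) or Veh replicate 2 (-1.64). *Ccl22* was not called without HC3 replicate 1 (-0.94). For *Cxcl16*, 18.3% of the exonic length overlaps a gene of the other strand.

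Among transcription regulators, *Irf4*, which IL-4 induces and which acts in alternative activation, had 62.3, 83.1 and 69.4 CPM in Veh and 12.5, 17.3 and 14.5 in HC3 (log2 fold change -2.28, SE 0.16, FDR = 2.16e-09). *Egr2*, another regulator of this state, had 213, 262 and 225 CPM and 89.6, 99.2 and 86.2 (log2 fold change -1.35, SE 0.088, FDR = 8.47e-10). HC3 libraries were the lower ones for both, with no overlap, and *Klf4*, a regulator that works with STAT6, rose (1.07). On the cell surface *Itgax* (-1.17), the integrin CD11c, *Flt1* (-1.47), a receptor for VEGF, and *Cd163* (-2.65), the receptor for hemoglobin with haptoglobin, fell, and *Cd274* (1.68), the checkpoint ligand PD-L1, rose from 87.7, 113 and 82.4 CPM to 263, 353 and 289.9. Enzymes split as well: besides *Arg1*, *Ptgs1* (-1.47), the cyclooxygenase COX-1, fell, and *Mmp13* (2.63), a collagenase, and *Ch25h* (2.35), cholesterol 25-hydroxylase, rose. *Mmp13* had 59.5, 74.0 and 67.7 CPM in Veh and 409.9, 417 and 421 in HC3, with every HC3 library well above every Veh library.

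Several hallmark genes of M[IL-4] were not called. *Mrc1* was lower in each HC3 library (1499.5, 1985 and 1865 CPM in Veh, 968, 1089 and 1115 in HC3), with an FDR of 3.91e-05 but short of the fold threshold (-0.75). *Chil3* had 334, 556 and 369 CPM in Veh and 399, 744 and 494 in HC3, and the groups overlapped (log2 fold change 0.38, SE 0.23, FDR = 0.21, 95% interval of the difference -0.12 to 0.88). HC3 was the higher library in each of the 3 pairs of *Chil3* with the same replicate number, and with a block for that number its FDR was 0.000211. *Pdcd1lg2*, the checkpoint ligand PD-L2, overlapped too, with 15.8, 22.7 and 20.3 CPM and 16.8, 22.5 and 17.1 (log2 fold change -0.06, SE 0.18, FDR = 0.831). *Clec10a*, a lectin that binds galactose, was higher in all HC3 libraries, 70.5, 69.6 and 74.4 CPM against 27.3, 43.8 and 42.5, short of the fold threshold (0.92, FDR = 0.000108) unless a Veh library was left out, Veh replicate 2 (1.03) or Veh replicate 3 (1.01). It shares 240 near-identical bases with *Mgl2*. *Cd36* (lipid uptake) had -0.43 (FDR = 0.000384) and *Mmp12* (elastase) -0.52 (FDR = 0.00789), and *Ccl17*, a chemokine for T cells, had -0.70 (FDR = 0.396).

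**Figure D3:**
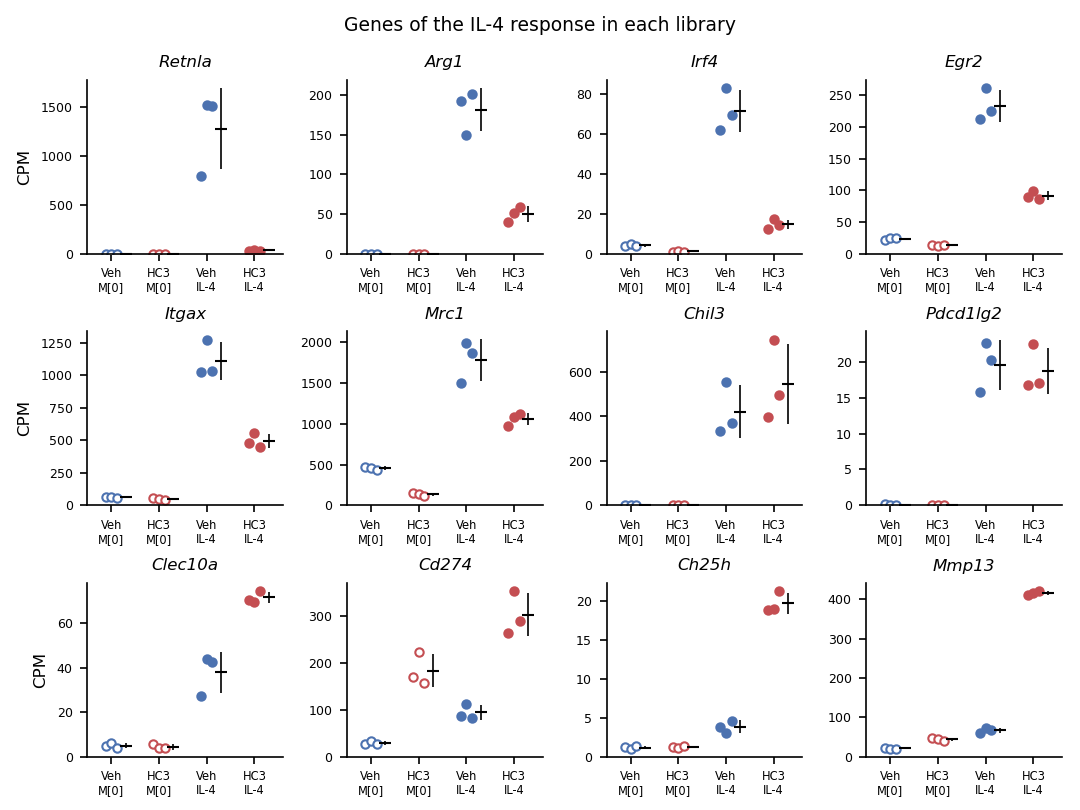
Levels of 12 genes of the IL-4 response in each library, in CPM, for vehicle (blue) and HC3 (red) in M[0] (open circles) and M[IL-4] (filled circles), with the mean and SD of the 3 libraries of each group beside the points. *Retnla*, *Arg1*, *Irf4*, *Egr2* and *Itgax* are lower with HC3 in M[IL-4] without overlap, *Chil3* and *Pdcd1lg2* overlap, and *Cd274*, *Ch25h* and *Mmp13* are higher.

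Of 21 genes of the IL-4 receptor and STAT6 pathway 1 rose and 2 fell (median -0.14), beside 10.3% called in either direction among all genes. *Il4ra*, which encodes the IL-4Rα chain, was higher in HC3, 95.4, 98.1 and 100.3 CPM against 68.6, 63.6 and 61.4, short of the fold threshold (log2 fold change 0.60, SE 0.068, FDR = 9.58e-07). *Stat6* was slightly lower (299, 290.0 and 279.6 CPM in Veh, 258, 267 and 262 in HC3, log2 fold change -0.14, SE 0.049, FDR = 0.0276). None of the 3 receptor chains and none of the 9 kinases, adaptors and transcription factors was called. The calls were in negative regulators: *Socs2* (-1.32), a suppressor of cytokine signalling, and *Ptpn6* (-1.20), the phosphatase SHP-1, fell, and *Socs3* (1.12) rose, not called without HC3 replicate 3 (0.92) or Veh replicate 2 (0.98). The promoter of *Retnla* and of 5 others of 36 promoters of the alternative activation list (16.7%) held the STAT6 N4 site, a palindrome of TTC and GAA around 4 free bases, as did 6.99% of all promoters, 5.51% of those of tested genes, 5.49% of those of genes that rose and 7.43% of those of genes that fell. Of those 5 genes *Itgax* fell, and *Ccl17*, *Cd36*, *Clec7a* and *Pdcd1lg2* were not called. Other genes of the list fell without a match, among them *Irf4*, *Egr2*, *Ccl22* and *Cd163*. The site of *Retnla*, 145 bases before the start given by RefSeq, which lies downstream of the start of the gene given above, is shown with 20 bases on each side and the matched letters in capitals (GRCm38.p6, RefSeq).
Retnla (chr16:48842444-48842493, forward strand): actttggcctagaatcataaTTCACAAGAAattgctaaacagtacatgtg

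The genes that handle choline itself were mostly not called. Of 29 genes tested of choline and phosphatidylcholine metabolism, 1 rose and 3 fell (median -0.08), beside 10.3% called in either direction among all genes, and 7 of the 10 choline transporter genes listed were below the count filter. *Slc44a1*, the main choline transporter of macrophages, was lower in every HC3 library, 75.7, 92.8 and 82.6 CPM against 131, 149.9 and 126 in Veh, short of the fold threshold (log2 fold change -0.69, SE 0.096, FDR = 1.17e-05). None of 9 genes of the Kennedy pathway, which leads from choline to phosphatidylcholine, was called. *Chka*, the choline kinase, had 20.6, 23.2 and 23.1 CPM and 21.5, 19.8 and 22.1 (log2 fold change -0.08, SE 0.093, FDR = 0.568), and *Pcyt1a*, the rate-limiting CCTα, had 168, 235 and 196 and 177, 196 and 184 (log2 fold change -0.10, SE 0.097, FDR = 0.427), with overlapping groups in both. The related transporter *Slc44a2* had -0.03 (FDR = 0.82). Calls fell on genes at the edges of the pathway. *Chdh*, the mitochondrial choline dehydrogenase that starts the oxidation of choline to betaine, had no count in the Veh libraries and 35 in the HC3 libraries, at least 11.6-fold higher against a floor of 3 counts over the group. *Enpp6*, which frees choline from glycerophosphocholine, had 35 counts in Veh and 5 in HC3 (ratio 7.05, 95% interval 2.75 to 23.0), and *Mboat2*, an acyltransferase that remodels phospholipids, had 5.22, 6.10 and 4.59 CPM and 0.509, 0.553 and 0.876 (log2 fold change -3.02, SE 0.33, FDR = 5.47e-07). *Mboat1* (-1.14), a related acyltransferase, fell less, and of 7 genes for ethanolamine and serine phospholipids none was called. *Enpp6* was not called without Veh replicate 2 (-2.17), and without HC3 replicate 2 the list had 6 genes that fell.

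In sterol synthesis 11 of 28 genes fell and none rose, and the median was -0.81. These genes are switched on together by the transcription factor SREBP2 when the cholesterol of the ER is low. Those that fell included *Stard4* (-2.16), a carrier of cholesterol, *Insig1* (-1.46), which holds SREBP in the ER, and *Msmo1* (-1.21), an enzyme of the later pathway, besides *Fdps* (-2.58) and *Idi1* (-2.20), which are enzymes too, and *Srebf2* (-1.21), which encodes SREBP2. *Stard4* had 47.4, 44.2 and 47.3 CPM in Veh and 9.51, 9.35 and 12.1 in HC3 (log2 fold change -2.16, SE 0.15, FDR = 1.59e-09). HC3 libraries were the lower ones with no overlap. *Hmgcs1*, an early enzyme of the pathway, was lower short of the fold threshold (-0.85, FDR = 4.25e-08). *Fdps* and *Idi1* have near-identical copies, so part of their counts is uncertain. The letters TCACNCCA of the sterol element stood in 3 of 20 promoters of the list (15.0%), 4.28% of all promoters and 3.63% of those of tested genes, and in 2.48% and 3.66% of those of genes that fell and rose.

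Other lipid genes split by function. In fatty acid synthesis (14 genes) *Elovl6* (1.4), an elongase, rose and *Scd2* (-1.29) and *Fads2* (-1.13), desaturases, fell (*Fads2* not without HC3 replicate 2 (-0.97)), while *Fasn*, fatty acid synthase, had -0.58 (FDR = 0.00384) and *Srebf1* -0.47 (FDR = 0.000154). Cholesterol export was not called, with *Abca1* at -0.20 (FDR = 0.269) and *Abcg1* at -0.59 (FDR = 0.00112), and in the list of LXR targets and efflux (12 genes) *Npc1* (1.16), which moves cholesterol out of lysosomes, rose and *Abca9* (-2.53) fell. Of 32 genes of lipid uptake, storage and lipolysis 3 rose and none fell. *G0s2*, an inhibitor of the lipase ATGL, had 7 counts in Veh and 63 in HC3 (ratio 8.94, 95% interval 4.10 to 23.2), *Gpat3*, an acyltransferase of triglyceride synthesis, had 16 and 98 (6.09, 3.57 to 11.1, with 30.0% of its exonic length overlapped by a gene of the other strand), and *Fabp5* (1.05), a fatty acid carrier with near-identical pseudogenes, rose near the threshold and not without HC3 replicate 2 (0.97). Without Veh replicate 3, 6 genes of this list were called higher. *Plin2*, which coats lipid droplets, had 0.79 (FDR = 3.65e-07). *Smpdl3b* (-2.04) and *Cers4* (-1.07), of 27 sphingolipid genes, fell. Prostaglandin genes moved in both directions. *Ptgs2*, the inducible cyclooxygenase COX-2, rose from 3.12, 4.30 and 4.26 CPM to 16.3, 23.2 and 26.0 (log2 fold change 2.49, SE 0.19, FDR = 4.41e-09), *Hpgd*, which inactivates prostaglandins, fell from 14.9, 14 and 16.8 to 2.89, 3.21 and 3.34 (log2 fold change -2.27, SE 0.14, FDR = 3.6e-10), and *Ptgir* (2.83) and *Ptger3* (2.07), prostaglandin receptors, rose. The groups did not overlap. Of the 19 eicosanoid genes *Ptgs1* (-1.47), *Cysltr1* (-1.5) and *Ltc4s* (-1.04), COX-1 and a receptor and a synthase of leukotrienes, fell as well, *Ltc4s* not without HC3 replicate 2 (-0.86) or Veh replicate 1 (-0.89) and with 26.4% of its exonic length overlapped from the other strand.

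Antigen presentation split by class. Of 8 tested genes of MHC class II, which present peptides to helper T cells, 6 fell and none rose (median -1.24), while none of 12 MHC class I genes was called (median 0.19). *Ciita*, the master regulator of class II, had 23.2, 44.1 and 25.7 CPM in Veh and 6.85, 11.3 and 6.84 in HC3 (log2 fold change -1.89, SE 0.29, FDR = 3.06e-05), and *H2-DMa*, which loads peptide, had 42.9, 67.8 and 52.5 and 13.4, 15.4 and 12.2 (log2 fold change -1.99, SE 0.18, FDR = 5.92e-08), both without overlap. *Cd74*, the invariant chain, fell by 1.35 and *H2-Ab1* was lower by 0.95 (FDR = 0.000659), short of the threshold and called without HC3 replicate 2 (-1.07) or Veh replicate 1 (-1.06). Without Veh replicate 2, 3 of the class II genes were called. *B2m*, the light chain of class I, had 0.17 (FDR = 0.214). Of 12 costimulatory and checkpoint ligands 3 rose. *Cd86*, the CD28 ligand, had 2.15, 4.64 and 3.47 CPM in Veh and 28.3, 58.3 and 37.3 in HC3 (log2 fold change 3.6, SE 0.33, FDR = 6.47e-08), with all HC3 libraries well above the Veh libraries and replicate 2 the highest in both groups, and *Pvr* (1.21), a ligand of T and NK cell receptors, rose beside *Cd274*.

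The genes of complement C1q and some lectin and scavenger receptor genes fell. All of *C1qa*, *C1qb* and *C1qc*, which form C1q and tag dying cells, fell: *C1qa* from 407, 379 and 543 CPM to 40.6, 38.0 and 42.9 (log2 fold change -3.45, SE 0.19, FDR = 7.19e-11), and *C1qb* (-2.66) and *C1qc* (-2.28) with it. No HC3 library came near a Veh library. In the list of lectins, scavenger receptors and genes for the uptake of dying cells, which includes *C1qa*, 9 of 29 genes fell. Of its 16 lectins 2 fell, among them *Clec12a* (-1.67), an inhibitory lectin, and 1 rose, *Clec4e* (3.42), the lectin Mincle. Of the other 13 genes 7 fell and none rose. Of 9 chemokine receptors tested 5 fell and 1 rose. *Ccr2*, the receptor of monocytes for CCL2, was among those that fell, with 22.3, 30.8 and 22.1 CPM in Veh and 3.06, 3.6 and 3.50 in HC3 (log2 fold change -2.88, SE 0.21, FDR = 4.25e-09). *Cx3cr1*, the fractalkine receptor, had 112 counts in Veh and 16 in HC3 (ratio 7.05, 95% interval 4.15 to 12.8), and *Ccr3* (-2.62) fell too. Of 28 chemokine and receptor genes 11 fell, ligands such as *Ccl9* (-2.12), *Ccl24* (-2.24) and *Cxcl16* (-1.48) included, and *Ackr3* (3.16) and *Cxcl2* (2.58), a scavenging receptor and a neutrophil chemokine, rose. *Ackr3* had 5 counts in Veh and 48 in HC3 (ratio 9.54, 95% interval 3.82 to 30.7). *Ccl2*, the monocyte chemokine, had -0.23 (FDR = 0.331).

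Inflammatory cytokine genes went the other way in a few cases: 5 of 15 rose and *Il10* fell. *Il6* was almost absent in Veh (4 counts over the 3 libraries) and present in HC3 (294 counts), at 0.108, 0.116 and 0 and 4.98, 6.75 and 4.60 CPM (log2 fold change 6.07, SE 0.54, FDR = 4.67e-08). *Ereg* (2.02), *Csf1* (1.4), *Vegfa* (1.32) and *Osm* (1.16), growth factors and a cytokine of the IL-6 family, rose, *Ereg* from only 12 counts over the Veh libraries to 50 over the HC3 libraries. *Tnf* had 0.36 (FDR = 0.216), *Il1b* had 29 counts in Veh and 9 in HC3 (called without Veh replicate 1 (-2.11)), and *Tgfb1* had -0.12 (FDR = 0.358), none of them called. Of 36 interferon response genes 1 rose and 2 fell, *Cmpk2*, a nucleotide kinase, and a guanylate-binding protein. *Cmpk2* (-1.32) was not called without HC3 replicate 1 (-1.49) or HC3 replicate 2 (-1.39) or HC3 replicate 3 (-1.11) or Veh replicate 2 (-1.31) or Veh replicate 3 (-1.01). Guanylate-binding proteins differed among themselves: *Gbp6* (1.94) rose and *Gbp3* (-1.64) fell, and outside the list *Gbp8* (0.377, 1.10 and 0.672 CPM in Veh, 22.1, 36.9 and 20.9 in HC3) and *Gbp11* (1 count in Veh, 227 in HC3, ratio 226, 95% interval 40.1 to 8948) rose. *Gbp6* is near-identical to *Gbp10* over 3131 bases. Of 35 genes of receptor and phosphatase signalling 7 fell, 1 rose and 27 were not called. *Ptpn6* (-1.20), *Lyn* (-1.002), *Dok2* (-1.84) and *Fgr* (-1.47), of the Src and ITIM pathways, and *C5ar1* (-1.44), *C5ar2* (-1.27) and *P2ry6* (-1.29), receptors for complement C5a and for nucleotides, fell and *Gpr84* (1.74), a receptor for fatty acids whose exons overlap a gene of the other strand over 39.5% of their length, rose. *Lyn* stood on the fold threshold, shares 1050 near-identical bases with *Gm11787*, and was not called without HC3 replicate 1 (-0.98) or HC3 replicate 3 (-0.95) or Veh replicate 2 (-0.92), while *Fgr* was not called without Veh replicate 2 (-0.99). Of 14 integrin genes *Itgam* (-1.38), *Itgax* (-1.17), *Itgal* (-1.05) and *Itgb8* (-2.40) fell and *Itgb7* (1.66) and *Itga4* (1.09) rose, *Itgal* not called without Veh replicate 1 (-0.65) or, in a fit of these groups alone, with a block for the replicate number (-0.96).

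**Figure D4:**
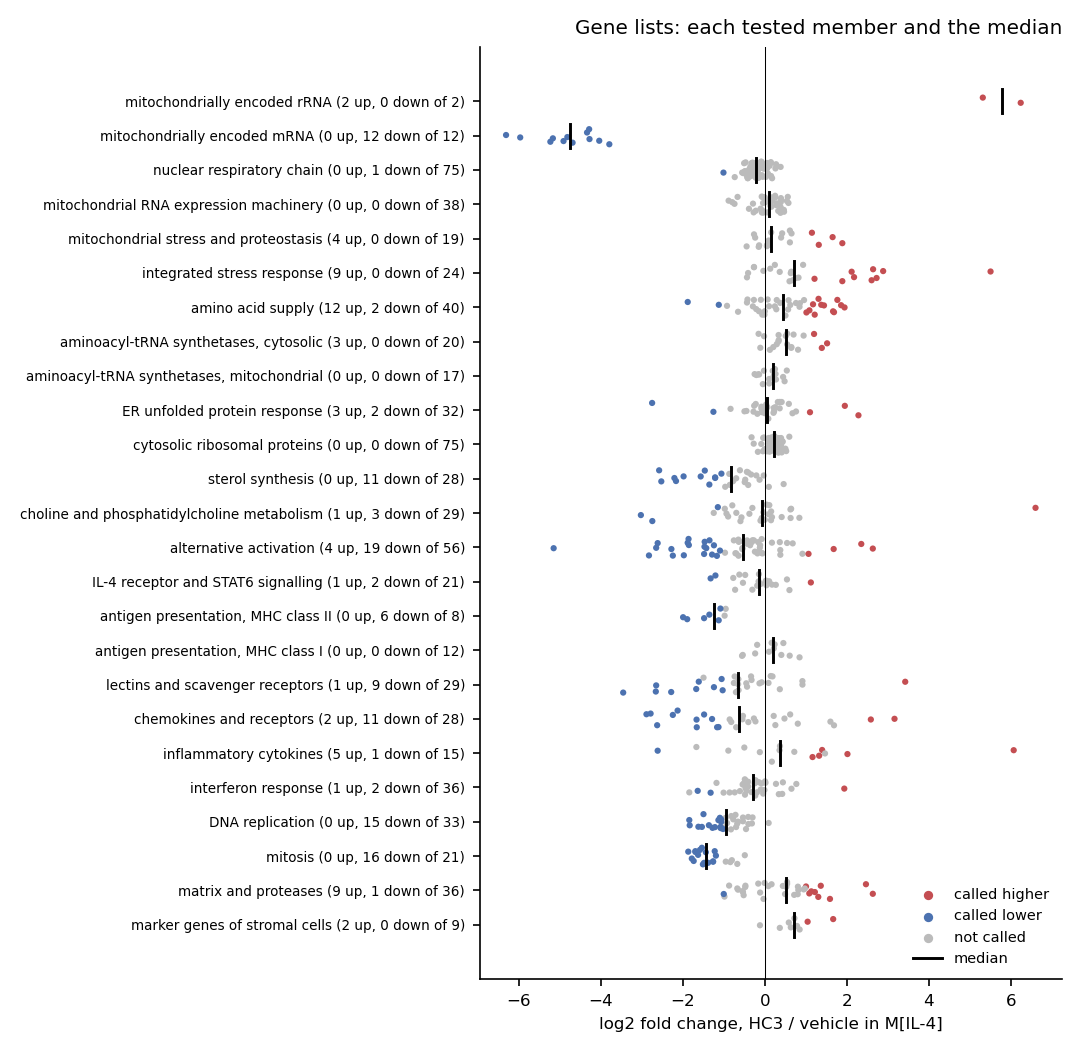
Log2 fold change of HC3 over vehicle in M[IL-4] for each tested member of 25 gene lists or parts of lists. Points are genes, red where called higher, blue where called lower and grey where not called, and the black bar is the median of the list. The axis labels give the calls, from 12 of 12 mitochondrial mRNAs lower to none of 75 cytosolic ribosomal protein genes called. The point of *Chdh*, which had no count in vehicle, is a fitted value and not a measured fold.

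Many genes of proliferation fell. Of 33 genes of DNA replication 15 fell, of 21 of mitosis 16, and of 18 of cell cycle control 6, with none rising, at medians of -0.95, -1.44 and -0.61. *Mki67*, the proliferation marker Ki-67, had 139.7, 167 and 139 CPM in Veh and 38.3, 40.8 and 54.9 in HC3 (log2 fold change -1.73, SE 0.18, FDR = 3.08e-07). *Mcm5*, a subunit of the replicative helicase, had 101, 76.9 and 83.7 CPM and 26.7, 23.9 and 23.1 (log2 fold change -1.83, SE 0.13, FDR = 2.51e-09), and *Mcm7* (-1.49) and *Mcm6* (-1.09), further subunits, and *Lig1* (-1.62), the ligase of replication, fell. HC3 libraries were below Veh libraries for these genes. In mitosis *Aurkb* (-1.78), *Kif11* (-1.69), *Bub1* (-1.69) and *Bub1b* (-1.48), a kinase, a spindle motor and checkpoint kinases, fell, and in cell cycle control *E2f8* (-2.22), *E2f2* (-1.78), *E2f7* (-1.77), *Cdkn2c* (-1.49) and *Ccnd1* (-1.20), the last with 23.4% of its exonic length overlapped from the other strand. *Pcna* was lower short of the threshold (-0.83, FDR = 1.11e-08) and *Cdkn1a*, which encodes the inhibitor p21, had 0.82 (FDR = 1.13e-09). *Mcm7* and *Pcna* have near-identical pseudogenes. Promoters of replication genes held the E2F core TTTNNCGC in 13 of 28 cases (46.4%), of mitosis genes in 1 of 18 (5.56%), of all genes in 5.27%, of tested genes in 8.52%, and of genes that fell and rose in 7.43% and 5.89%. Of the replication genes with the core, *Cdt1*, *Gins3*, *Orc1*, *Pola1*, *Pold1*, *Rfc3* and *Tyms* were not called. Others fell without it, among them *Fen1*, *Lig1*, *Mcm10* and *Rrm1*. The stretches upstream of *Mcm5*, with overlapping matches on both strands, and of *Mcm7* are shown with the matched letters in capitals (GRCm38.p6, RefSeq).
Mcm5 (chr8:75109336-75109387, forward strand): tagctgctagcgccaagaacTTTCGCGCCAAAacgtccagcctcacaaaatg
Mcm7 (chr5:138172021-138172068, reverse strand): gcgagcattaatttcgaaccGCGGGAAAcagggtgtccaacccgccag

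Of 26 p53 targets and BCL2 family genes 3 rose (*Fas* (1.54), *Bbc3* (1.08) and *Bcl2a1d* (1.58), a death receptor, a killer and a survival protein) and *Sesn1* (-1.75) and *Btg2* (-1.36) fell. *Bbc3* was not called without HC3 replicate 1 (0.86) or Veh replicate 2 (0.98). *Bcl2a1d* shares 819 bases with its copy *Bcl2a1a*. Cytosolic ribosomal protein genes, 75 in number, were not called at a median of 0.23, though 36 were higher and 2 lower by the FDR alone. The snoRNA hosts *Snhg12* (1.48) and *Snhg6* (1.24) rose, which are RNAs that nonsense-mediated decay normally removes (*Snhg6* not without HC3 replicate 1 (0.93)), and *Gas5*, another host, was higher by 0.73 (FDR = 1.47e-07). In glycolysis and lactate export *Pdk1* (-1.35), *Slc2a6* (-1.03) and *Aldoc* (-1.01) fell among 31 genes and none rose. *Slc2a6* was not called without HC3 replicate 1 (-0.96) or Veh replicate 2 (-0.93), nor *Aldoc* without HC3 replicate 1 (-0.95) or Veh replicate 1 (-0.87). *Slc2a1*, the glucose transporter GLUT1, had 0.44 (FDR = 0.000211) and *Ldha* -0.17 (FDR = 0.0314).

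Matrix genes rose more often than they fell, 9 up and 1 down of 36 (median 0.51). Besides *Mmp13*, *Col18a1* (2.47), a basement membrane collagen, *Loxl2* (1.59), a crosslinking enzyme, and *Thbs1* (1.36), thrombospondin, rose, and *Mmp8*, a neutrophil collagenase, fell at the threshold (-1.0, not called without HC3 replicate 1 (-0.92) or HC3 replicate 3 (-0.94) or Veh replicate 2 (-0.90)). Without HC3 replicate 3 or Veh replicate 2, 4 of the list rose. *Col18a1* had 62.3, 42.1 and 56.1 CPM in Veh and 355, 222 and 311 in HC3 (log2 fold change 2.47, SE 0.19, FDR = 7.13e-09), and *Thbs1* 536, 248 and 539 and 1149, 854 and 1404 (log2 fold change 1.36, SE 0.21, FDR = 4.67e-05). Some marker genes of stromal cells moved in the same direction. Of 9 tested of 11, 2 rose, *Acta2* (1.67) and *Col3a1* (1.04), and the sum of the list was 396 to 909 CPM in Veh and 911 to 1719 in HC3, while *Lum* and *Thy1* had 3 and 1 counts over all 6 libraries. With the FDR alone 4 were higher, none was lower and 5 did not pass. *Dcn*, a matrix proteoglycan, had 319 counts over the Veh and 295 over the HC3 libraries. *Col3a1* was not called without HC3 replicate 1 (0.96) or HC3 replicate 3 (0.86) or Veh replicate 2 (0.78), and without HC3 replicate 2 the list had 4 genes that rose. *Col1a1* had 0.79 (FDR = 0.0445, called without HC3 replicate 2 (1.02)) and *Col1a2* 0.63 (FDR = 0.112, and 4.49e-05 with a block for the replicate number). The part of stromal transcripts in the matrix result was not tested. *Spp1*, which macrophages make, had 0.52 (FDR = 0.000118) and *Mmp9* -0.67 (FDR = 0.0087). Genes of growth factors and receptors for vessels and repair split: the ligands *Vegfa* (1.32), *Vegfc* (1.14) and *Adm* (2.23) rose, and the receptor *Flt1* (-1.47) and the ligand *Pdgfb* (-1.43) fell.

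In arginine metabolism, *Arg1* fell while *Ass1*, which makes argininosuccinate, rose from 7.81, 6.74 and 7.78 CPM to 35.3, 40.9 and 39.4 (log2 fold change 2.37, SE 0.15, FDR = 5.01e-10), with the transporter *Slc7a1* and *Odc1* (1.08), the first enzyme of polyamine synthesis. *Ass1* and *Odc1* have near-identical copies. Of 20 genes of metal handling *Slc39a8* (1.61), a zinc importer, and *Slc25a37* (1.51), the mitochondrial iron importer, rose and none fell. Of 16 targets of the oxidative stress factor NRF2, *Gclm* and *Slc7a11* rose and none fell, with *Hmox1*, heme oxygenase, at 0.38 (FDR = 0.00624) and *Nqo1* at 0.36 (FDR = 0.0983, and 0.0414 with a block for the replicate number). In lysosomes and autophagy, *Sqstm1*, which encodes the autophagy adaptor p62, rose from 541, 515 and 529.8 CPM to 2099.8, 1914 and 2016 (log2 fold change 1.93, SE 0.064, FDR = 8.09e-14) and *Gusb* (-1.10), a hydrolase, fell, and the other 49 of 51 genes were not called. Both groups were far apart for *Ass1* and *Sqstm1*. For *Sqstm1*, 17.3% of the exonic length overlaps a gene of the other strand.

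Apart from the mitochondrial rRNAs, the genes that rose furthest had a low level in Veh. *F5*, coagulation factor V, on chromosome 1 of GRCm38 from 164151838 to 164220277, had 0.269, 0.174 and 0.168 CPM in Veh and 44.9, 72 and 57.8 in HC3 (log2 fold change 8.10, SE 0.33, FDR = 1.19e-12). *Gm16587*, a noncoding gene on the other strand beside *F5* (164143432 to 164146366), had no count in Veh and 191 in HC3, at least 63.3-fold higher against a floor of 3 counts over the group. Both neighbours were near or at 0 in every Veh library and well above it in every HC3 library. *Ffar2*, a receptor for short-chain fatty acids, had 0, 0.174 and 0.112 CPM in Veh and 24.1, 27.4 and 27.3 in HC3 (log2 fold change 8.04, SE 0.33, FDR = 9.87e-13). *Sh2d6*, an adaptor, had 8 counts in Veh and 605 in HC3 (ratio 75.1, 95% interval 37.9 to 175), *Dlg2*, a scaffold protein, 9 and 415 (45.8, 23.9 to 101), and *Avil*, an actin-binding protein, 3 and 315 (104, 35.4 to 509). Among genes with 50 or more counts on average in the higher group, the furthest fall by the fit, apart from mitochondrial genes and *Gm28439*, was in *Myh15*, a myosin gene on the chromosome of *Retnla* (49057486 to 49199104), with 4.95, 6.68 and 4.65 CPM in Veh and 0.113, 0.0553 and 0.219 in HC3 (290 and 7 counts, ratio 41.7, 95% interval 20.0 to 105). Every HC3 library was far below every Veh library for *Myh15*, as it was for *Retnla*.

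Most macrophage identity genes were lower with the FDR alone. Of 14 markers 3 fell, *Aif1* (-2.69), *Itgam* (-1.38) and *Cd14* (-1.01), and none rose. With the FDR alone 12 were lower and 1 was higher. The sum of all 14 was 14301 to 14496 CPM in Veh and 9184 to 10276 in HC3. *Fcgr1*, an Fc receptor, went against the others, with 2752 counts over the Veh and 4378 over the HC3 libraries. *Csf1r* was lower in every HC3 library (-0.87, FDR = 5.02e-09) and *Lyz2*, lysozyme, had -0.66 (FDR = 0.000275). *Cd14* was not called without HC3 replicate 2 (-0.996) or Veh replicate 1 (-0.97) or Veh replicate 3 (-0.99). Marker genes of macrophage fusion and osteoclasts fell in part, with *Dcstamp*, which is needed for cell fusion, at 48.9, 116 and 71.3 CPM in Veh and 8.32, 16 and 10.8 in HC3 (log2 fold change -2.74, SE 0.27, FDR = 2.04e-07) and *Ocstamp* (-2.17) beside it, 2 of 6 tested. Replicate 2 was the highest in both groups, and the groups did not overlap. Lists for other blood cells held few counts, apart from *Csf3r* in the neutrophil list and *Pf4* in that of megakaryocytes and erythroid cells. *Csf3r* (4668 counts over the Veh and 2959 over the HC3 libraries) and *Pf4* (1462 and 1114) made up most of the sums of their lists. The summed levels of the lists in Veh and HC3 were 80.7 to 102 and 51.5 to 58.0 CPM for neutrophils, 3.98 to 6.94 and 0.931 to 2.32 for B cells, 0.697 to 0.896 and 1.48 to 2.27 for T and NK cells, 3.08 to 4.64 and 4.49 to 6.64 for dendritic cells, and 2.18 to 3.31 and 4.65 to 7.70 for mast cells and basophils. Megakaryocyte and erythroid markers summed to 24.4 to 33.1 CPM and 20.4 to 22.7. Single members passed in either direction: *Ighm* (-1.91) and *Cxcr2* (-2.46) fell and *Lck* (2.32) and *Kit* (1.27) rose. *Ppbp* of megakaryocytes, with 7 counts in Veh and 19 in HC3 (ratio 2.70, 95% interval 1.09 to 7.59), was called here and not with a block for the replicate number (FDR = 0.0574), nor without HC3 replicate 1 (0.89) or HC3 replicate 2 (1.43) or Veh replicate 1 (1.57) or Veh replicate 2 (1.62) or Veh replicate 3 (1.04).

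Whether HC3 acted alike without IL-4 was asked in M[0]. There 889 genes rose with HC3 (5.93%) and 915 fell (6.11%). Of the 707 genes that rose in M[IL-4], 488 also rose in M[0] (69.0% of the first list and 54.9% of the second), and of the 829 that fell, 449 also fell (54.2% and 49.1%). The comparisons share no library. Of the called genes, 1 rose in M[IL-4] and fell in M[0], and 4 did the reverse. The turnover of mitochondrial RNA was also seen in M[0], with the same 12 mRNAs and 12 tRNA genes lower, both rRNAs higher, and no called difference between the states. The difference itself, tested as the interaction of HC3 with IL-4, was called for 186 genes (1.24%), 72 with a higher HC3 effect in M[IL-4] (0.481%) and 114 with a lower one (0.761%). For 101 of the 1536 genes called in M[IL-4] the difference was called too, and for 1435 it was not, which does not show that the effects were equal. Without replicate 3 of both M[IL-4] groups the higher effects numbered 45, and without replicate 2 the lower ones 75, and with a block for the replicate number within each polarization the total was 288.

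*Mmp13* rose further with IL-4 than without: its M[0] levels were 23.2, 20.9 and 19.7 CPM in Veh and 46.7, 46.0 and 39.5 in HC3 (difference 1.58, SE 0.12, FDR = 2.61e-07). *Ch25h* did not differ in M[0], with 1.27, 0.940 and 1.34 CPM and 1.23, 1.13 and 1.42, and the difference between the states was called (difference 2.27, SE 0.34, FDR = 0.000402). In both genes HC3 libraries of M[IL-4] were the highest of the 4 groups. *Mboat2* fell in M[IL-4], and in M[0] it had 0.498, 0.294 and 0.538 CPM in Veh and 1.5, 1.49 and 0.789 in HC3 (difference -4.50, SE 0.50, FDR = 2.64e-05). *Flt1* fell in M[IL-4] as well, against M[0] levels of 1.05, 1.06 and 0.968 CPM in Veh M[0] and 1.07, 1.02 and 1.26 in HC3 M[0] (difference -1.60, SE 0.30, FDR = 0.00311). *Scd2* had a lower effect in M[IL-4] too (difference -1.55, SE 0.24, FDR = 0.000672). *Ms4a4a*, a tetraspan protein of alternatively activated macrophages, and *Slco2b1*, an anion transporter, fell less in M[IL-4] than in M[0] (difference 2.85, SE 0.31, FDR = 2.64e-05, and difference 2.21, SE 0.38, FDR = 0.00139). *Ms4a4a* had 39.1, 54.2 and 39.8 CPM in Veh M[0] and 2.19, 2.77 and 2 in HC3 M[0], against 95.1, 145 and 125 and 34.1, 56.7 and 48.0 in M[IL-4]. *Mrc1* and *Clec10a* likewise had a higher HC3 effect in M[IL-4] (difference 1.01, SE 0.17, FDR = 0.000942, and difference 1.10, SE 0.27, FDR = 0.0212).

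Several stress and amino acid genes had a lower HC3 effect in M[IL-4] than in M[0]. The difference was called for *Slc7a11* (difference -2.29, SE 0.36, FDR = 0.000656), *Chac1* (difference -1.69, SE 0.31, FDR = 0.00241), *Psat1* (difference -1.30, SE 0.23, FDR = 0.00162), which was higher with HC3 in M[0] and lower in M[IL-4], *Mthfd2* (difference -1.12, SE 0.095, FDR = 1.67e-06), *Trib3* (difference -1.07, SE 0.16, FDR = 0.000552) and *Asns* (difference -1.06, SE 0.14, FDR = 0.00012). For *Asns* the Veh libraries differed more than the HC3 libraries, with 36.8, 27.1 and 31.5 CPM in Veh M[0] against 85.7, 66.9 and 81.0 in Veh M[IL-4], and 174, 165 and 154 in HC3 M[0] against 189, 205 and 186 in HC3 M[IL-4]. For *Trib3*, too, the HC3 levels of both states were close, 297, 319.8 and 329 CPM in M[0], and the Veh levels were lower in M[0], 2.49, 3.70 and 3.76 CPM. *Ddit3* and *Atf4* had no called difference (difference -0.45, SE 0.13, FDR = 0.0381, and difference -0.56, SE 0.077, FDR = 0.000204).

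**Figure D5:**
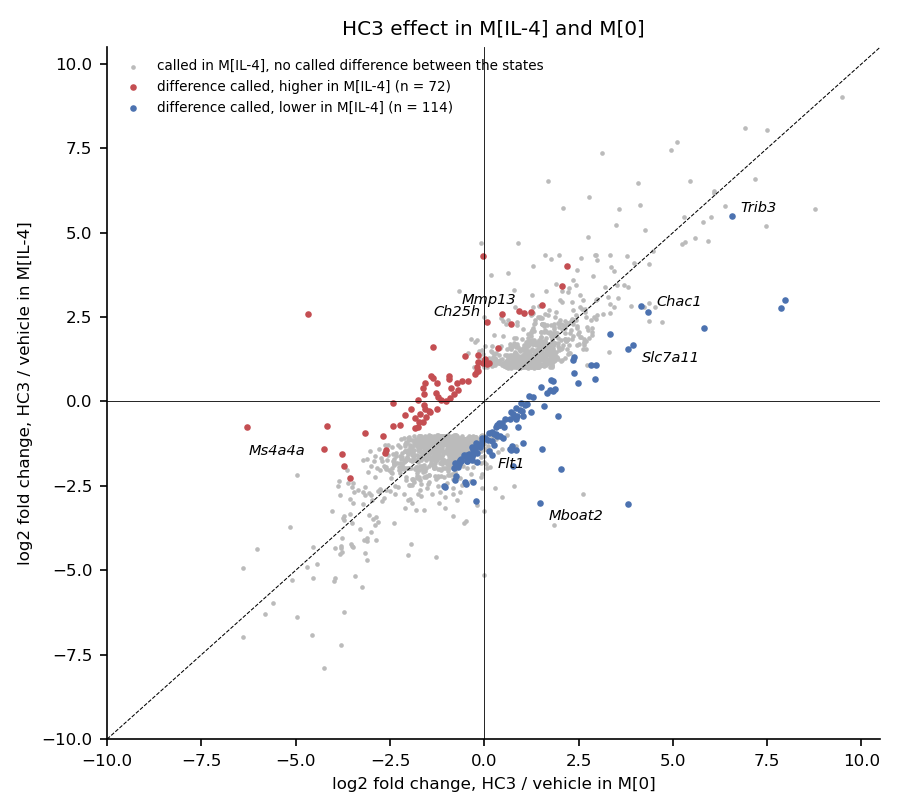
HC3 effect in M[IL-4] (y axis, log2 fold change of HC3 over vehicle) against that in M[0] (x axis). Points are genes called in M[IL-4] (grey) or genes whose effect differed between the states, higher in M[IL-4] in red (72) and lower in blue (114), and the dashed line marks equal effects. *Mmp13* and *Ch25h* lie above the line and *Mboat2*, *Flt1*, *Slc7a11*, *Chac1* and *Trib3* below it.

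Block of choline uptake and inhibition of choline kinase were compared directly in M[IL-4], each at its single dose. HC3 and RSM libraries differed in 419 genes (2.80%), of which 206 were among the 1536 called for HC3 against Veh. Those comparisons share the HC3 libraries, so their values are given side by side only. Mitochondrial RNA differed most: rRNA was 32.8%, 23.8% and 29.6% of the mitochondrial counts in RSM, between the shares in Veh and HC3, and all mitochondrial transcripts took 0.665% to 0.829% of the library. *mt-Rnr1* and *mt-Rnr2* were higher with HC3 than with RSM (log2 fold change 3.88, SE 0.21, FDR = 2.65e-10, and log2 fold change 3.6, SE 0.17, FDR = 8.81e-11), and all 12 mRNAs and 12 of 13 tRNA genes were lower. *Arg1* had 380.2, 456 and 557 CPM in RSM against 39.9, 51.8 and 59.1 in HC3 (log2 fold change -3.21, SE 0.16, FDR = 1.67e-10), and *Mrc1* had 2992, 2922 and 3354 against 968, 1089 and 1115 (log2 fold change -1.55, SE 0.12, FDR = 4.1e-08). RSM libraries were the higher ones for both without overlap. *Retnla* was low with both, 20.0, 25.9 and 32.2 CPM in RSM, and the difference was not called (log2 fold change 0.47, SE 0.24, FDR = 0.264, 95% interval -0.06 to 0.99). *Trib3* was close as well (350.4, 335 and 319.8 CPM in RSM, log2 fold change -0.06, SE 0.084, FDR = 0.725, 95% interval -0.24 to 0.12), while *F5* was lower with HC3 (-1.94, FDR = 1.08e-07). A p that misses the threshold does not show that the inhibitors act alike.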

How the data were processed

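Per the study's methods, reads were trimmed (fastp), mapped to GRCm38 (STAR, local mode), kept at a mapping quality of 40 and assigned to exons by featureCounts, with duplicates marked by Picard and retained. Versions, annotation release and strand setting are not given in the sources used here. The values are raw counts per Ensembl gene as deposited by the authors, not normalized, with totals of 17624254 to 18911300 in the Veh and HC3 libraries of M[IL-4]. Since duplicates were retained and no molecular identifiers are described, intervals and floors cover counting error only.

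Symbols and positions came from the GENCODE annotation of GRCm38, which held 55144 of the 55385 gene IDs. Libraries were grouped by their labels. All 18 were fitted together by edgeR 4.0.16 under R 4.3.3 (TMM scaling, glmQLFit, glmQLFTest, 1 coefficient per group, no block), and the contrasts were HC3 with Veh in M[IL-4] and in M[0], the interaction, and HC3 with RSM in M[IL-4]. SE is the log2 fold change over the square root of F, and 95% intervals use the 12 residual degrees of freedom. For genes with few counts, ratios of counts summed over a group carry exact conditional binomial intervals, and a group at 0 was set to a floor of 3 counts. An exact permutation test of 3 against 3 libraries has p = 0.1 as its smallest value and was not used.

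Same-numbered HC3 and Veh libraries of M[IL-4] deviated together (residual correlations of 0.464, 0.662 and 0.318 over 10974 genes, against -0.541 to 0.224 for other numbers), so the numbers were taken to pair them. Unless a block is named, the reported values come from the fit without a block, which does not use this pairing. Alternatives were a block for the replicate number, DESeq2 1.42.0, other scalings and filters, the FDR alone, and libraries left out. Near-identical transcripts were found with blastn 2.17.0 (98% identity or more over 100 bases or more). Python 3.11.15 and matplotlib 3.10.9 drew the figures.

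The comparison, the 49 gene lists and the rules were chosen with earlier results of these data known. The rule for named genes took the 12 largest rises and falls among called genes whose groups did not overlap and that had 50 or more counts on average in the higher group, core genes of each list, up to 4 called members of a list by FDR and up to 2 abundant uncalled ones, and the 4 largest differences in each direction of the interaction and of HC3 with RSM. Marker genes of other cell types and these genes were named after their values were seen: *Ackr3*, *Adm*, *Aldh1l1*, *Bbc3*, *C5ar2*, *Ccl22*, *Cd163*, *Cd74*, *Clec4e*, *Csf1*, *Cxcl2*, *Cysltr1*, *Derl3*, *Ear2*, *Ereg*, *Fdps*, *Fgr*, *Gdf15*, *Gpr84*, *Idi1*, *Itgal*, *Itgb8*, *Klf4*, *Ltc4s*, *Mmp8*, *Nupr1*, *Ptger3*, *Sesn2*, *Srebf2*, *mt-Atp6*, *mt-Co2*, *mt-Co3* and *mt-Nd1*. A few genes are not reported here. Lists were not tested for enrichment.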

Additional observations from a re-analysis of the deposited data

Results flagged for a closer look

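The effect of HC3 differed between M[IL-4] and M[0] for 186 genes by the interaction test of edgeR, where 14979 genes were tested. Among the named genes with more than 3 counts in each of the 4 groups, the effect (log2 fold change of HC3 over Veh) was higher in M[IL-4] for *Ms4a4a* by 2.85 (FDR = 2.64e-05), *Ch25h* by 2.27 (FDR = 0.000402), *Slco2b1* by 2.21 (FDR = 0.00139), *Mmp13* by 1.58 (FDR = 2.61e-07), *Clec10a* by 1.10 (FDR = 0.0212) and *Mrc1* by 1.01 (FDR = 0.000942). *Ms4a4a*, *Slco2b1* and *Mrc1* were lower with HC3 in both states, with effects in M[0] of -4.25, -3.77 and -1.76.

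The effect was lower in M[IL-4] for *Mboat2* by a difference of -4.50 (FDR = 2.64e-05), *Slc7a11* (-2.29, FDR = 0.000656), *Chac1* (-1.69, FDR = 0.00241), *Flt1* (-1.60, FDR = 0.00311), *Scd2* (-1.55, FDR = 0.000672), *Psat1* (-1.30, FDR = 0.00162), *Mthfd2* (-1.12, FDR = 1.67e-06), *Trib3* (-1.07, FDR = 0.000552) and *Asns* (-1.06, FDR = 0.00012). *Mboat2* rose with HC3 in M[0] (1.48, FDR = 0.00365) and fell in M[IL-4] (-3.02). *Trib3*, *Chac1*, *Slc7a11*, *Asns* and *Mthfd2* rose in both states, and their mean Veh levels were higher in M[IL-4] than in M[0], at 13.8 against 4.78 CPM for *Slc7a11* and 77.9 against 31.8 CPM for *Asns*.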

How the results depend on the processing

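Over 19 alternatives the genes called for HC3 in M[IL-4] numbered 1315 to 1626 (563 to 777 higher, 752 to 860 lower), and 5810 passed with no fold threshold. Scaled by library size only, 777 rose and 766 fell, so 50.4% of calls were higher in place of 46.0%, and the median log2 fold change of all genes was 0.06. Without a fold threshold 970 genes passed for the interaction, 1947 for HC3 against RSM and 6608 for HC3 in M[0]. The interaction gave 288 calls with the replicate block within polarization (123 higher), 239 with the replicate block over all libraries, and 127 to 181 with libraries left out (45 to 73 higher, 75 to 114 lower). The other totals, over all genes tested and over all lists, stayed within 1.5 times of those reported. Counts of some lists moved further with a library left out. Those of matrix, MHC class II, lipid uptake, choline and stromal genes are given above. Of 187 named genes called for HC3 in M[IL-4], 163 were called under every alternative that tested them. The replicate block over all libraries ended the call of *Ppbp* and of no other gene named as called, and it moved the FDR of the uncalled *Chil3*, *Col1a2*, *Xbp1* and *Nqo1* under 0.05. Within polarization the block also ended the call of *Lyn*. There it brought the FDR of further uncalled genes under 0.05, among them *Abca1* (0.00555), *B2m* (0.00766) and *Ccl2* (0.0484). In a fit of the compared groups with replicate block *Itgal* (-0.96) was not called, nor were *Aldoc*, *Cd14*, *Lyn*, *Mmp8* and *Uqcrh*, which that fit did not call without the block either. *Cxcr2* was not called by DESeq2 or with no count filter. With a replicate left out of both groups at once, a setting chosen after seeing the data, *Osm* (0.98 without replicate 2), *Ereg* (1.30 without replicate 3) and *Itga4* (0.99 without replicate 3) were not called.

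Signs turned for small uncalled differences: with libraries left out *Chka* ranged from -0.14 to 0.0011, *Hspa5* from -0.18 to 0.044, *Pcyt1a* from -0.22 to 0.028, *Pdcd1lg2* from -0.21 to 0.061 and *Slc44a2* from -0.12 to 0.054, and the last had 0.018 scaled by library size only. The cause was not tested. Fits with a library left out used the spread of all groups. Depth limits low genes such as *Chdh*, *Enpp6* and *G0s2*, whose counting intervals are wide.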

Other observations

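Abundant genes of macrophage function moved by less than the fold threshold. *Apoe*, the apolipoprotein of cholesterol export, had 2883, 2475 and 3259 CPM in Veh and 1598, 1585 and 1575 in HC3 (-0.86, FDR = 0.00827), and *Lpl*, lipoprotein lipase, 8804, 10520.2 and 9773 CPM in Veh and 6564, 6576 and 6679 in HC3 (-0.55, FDR = 0.00206). The HC3 libraries were the lower ones for both. *Gpnmb*, a lysosomal membrane protein, went the other way, with 11366, 10970.1 and 9724 CPM in Veh and 15962, 17516 and 15052 in HC3 (0.60, FDR = 2.61e-06), as did *Fth1*, the ferritin heavy chain (0.54, FDR = 0.000213). *Igf1*, a growth factor, was lower (-0.55, FDR = 4.67e-05), and *Nrp2*, a VEGF coreceptor, too (-0.64, FDR = 4.98e-08). *Itgb2*, the chain shared by CD11b and CD11c integrins, had 1458, 1616 and 1482 CPM in Veh and 866, 930.2 and 838 in HC3 (-0.79, FDR = 2.05e-08), with no overlap. *Tbxas1*, thromboxane synthase, was lower just short of the threshold (-0.97, FDR = 3.42e-09, called without HC3 replicate 2 (-1.01)), and *Lgals3*, galectin-3, differed little, with 6691, 6024 and 6607 CPM in Veh and 7661, 6964 and 6729 in HC3 (0.14, FDR = 0.247).

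By annotated class, 596 of 12666 protein-coding genes rose and 710 fell, against 19 and 26 of 317 lincRNA genes and 27 and 18 of 399 antisense genes. The long noncoding RNAs *Malat1* and *Neat1* were not called (0.27, FDR = 0.0171, and 0.24, FDR = 0.116). Zinc importer *Slc39a14* was higher in every HC3 library (44.4, 43.4 and 50.2 CPM against 24.0, 25.2 and 23.4), short of the fold threshold (0.93, FDR = 6.86e-08), and so was the amino acid transporter *Slc38a2* (348, 383 and 372 against 176, 202 and 191 CPM, 0.96, FDR = 8.33e-09, called without Veh replicate 2 (1.004)).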
